A study of Mus musculus with 90 samples.

Results

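The G2 and mitosis genes followed here are 44 named genes whose products carry a dividing cell through the second gap phase, mitosis and the separation of its daughters. Each gene was taken wherever the chip annotation gave a probe set that gene's symbol alone, which held for 43 of the 44. Hmmr had no such probe set and was not analysed here. The 43 genes had 83 probe sets, 20 genes with a single one and 23 with several, among 15964 genes with a probe set in all. Each gene is given by 1 probe set (38 on the MG_U74Av2 chip and 5 on MG_U74Bv2), and its further probe sets are described separately.

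The samples were primary skeletal myoblasts of MyoD-/- mice. Growth medium was Ham's F10 supplemented with basic fibroblast growth factor and fetal bovine serum, and it was then exchanged for DMEM containing a low share of horse serum, which lets myoblasts differentiate. RNA was taken at 10 times: 0h, every 6 h up to 24h, then 36h and 48h, and after 3d, 4d and 7d. This was done for each of 3 cultures, which the titles call 1999, P6 and P10, and each RNA was read on 3 chip designs, 90 arrays in all. Every group is MyoD-/-, the 0h cells included, so the comparisons are between times and show no effect of the genotype. The labels do not say what the culture names mean, or whether the cultures came from separate animals. The p-values rest on how far these 3 cultures depart from a shared time course, after each culture's own level is taken out. That spread is pooled over the 10 times, and it does not reach beyond these cultures.

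A cell enters mitosis when the kinase CDK1, bound to a cyclin, is switched on. The kinetochore then ties chromosomes to the spindle, the spindle checkpoint holds the cell until all are attached, and the anaphase-promoting complex releases it. In cycling cells many of these genes are transcribed late in the cycle, through promoters that carry CCAAT boxes and a cell cycle genes homology region, abbreviated CHR. Through the CHR the DREAM complex represses them in resting cells, and the activators B-MYB and FOXM1 act on them in cycling cells. Myoblasts leave the cell cycle for good before they fuse into myotubes.

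Of the 43 genes 37 were lower at 18h than at 0h, and 40 were lower at 7d. Ndc80, Cenpe and Cit did not pass at any time on the chosen probe sets, and Ube2c passed at 7d alone. At 6h 0 of 43 passed the test in either direction, while 0.438% of all genes were lower. At an unadjusted p under 0.05, 13 of the 43 were lower and 0 higher at 6h. Counts at an unadjusted p, here and below, stand without the share of all genes and are descriptions only. At 12h 21 of 43 were lower, against 1.85% of all genes, and the median log2 fold change of the 43 was −1.23, against 0.01 over all genes. At 18h 37 were lower, against 4.45% of all genes, with a median of −2.55. The count was 39 of 43 at 24h (4.08% of all genes), 36h (3.78%), 48h (5.21%), 3d (4.8%) and 4d (5.12%), and 40 of 43 at 7d (7.08%). Medians from 24h to 7d lay between −2.75 and −2.59. At no time was any of the 43 called higher. The members were chosen with earlier results of these data known. A gap between their counts and the shares of all genes, here and below, cannot be told apart from that choice. These are limma tests of each time against 0h with the culture as a block, at an adjusted p under 0.05 over 36701 probe sets. A value, the 25th percentile of its chip table (119.8 on MG_U74Av2 and 270.1 on MG_U74Bv2), was added to each signal before log2, so folds of dim genes are understated. A value after ± beside a log2 fold change is its SE, and 3 signals in a row are those of cultures 1999, P6 and P10. For 11 of the 43 the mean signal from 24h on lay under that value. In RNA of whole cultures, fewer dividing cells and less of a transcript per cell cannot be told apart.

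For 40 of the 43 genes all 18 arrays of 24h to 7d lay below all 3 arrays of 0h. For 31 of them these 18 arrays also lay below all 9 arrays of 0h, 6h and 12h. The share of all genes with such a separation was not counted, so these counts are descriptions. The exceptions at 0h were Ndc80, Cenpe and Cit, whose chosen probe sets were dim throughout.

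**Figure D1:**
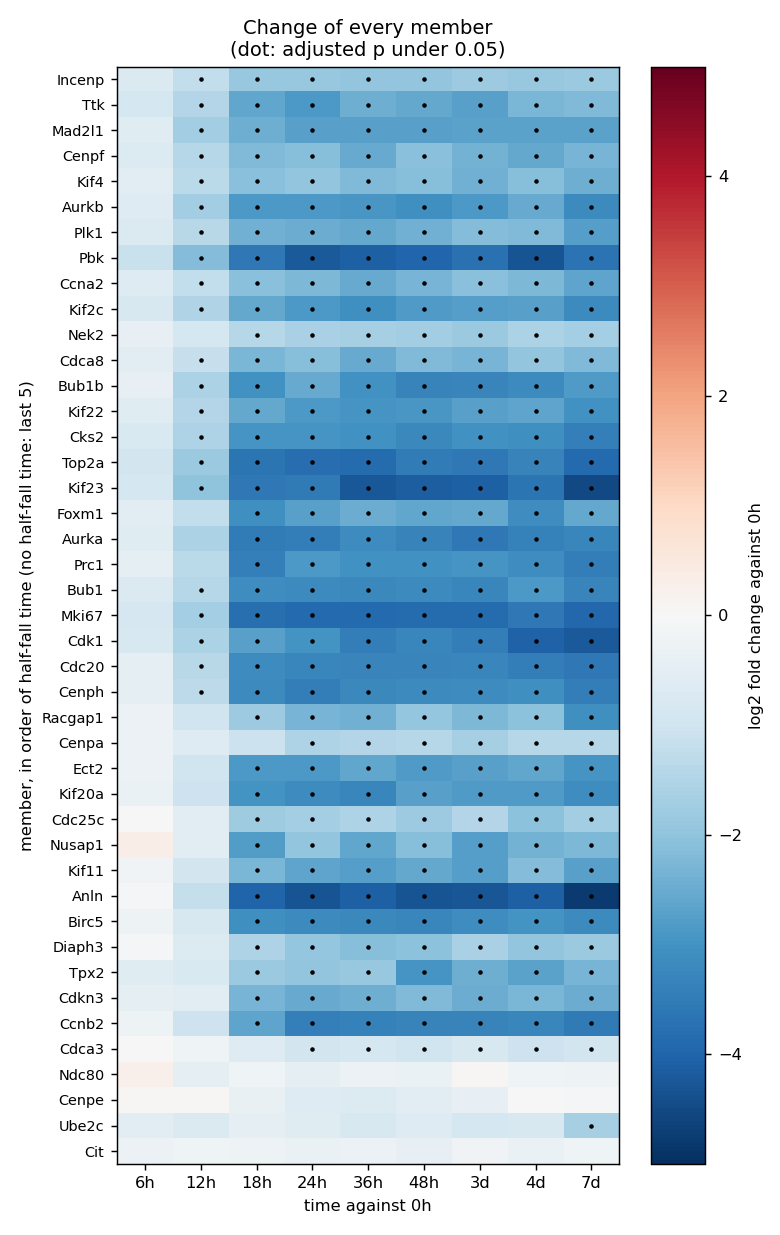
Log2 fold change of each of the 43 genes (rows, in order of half-fall time, the 5 genes without one last) at each later time against 0h (columns); a dot marks an adjusted p under 0.05. The colour deepens at 18h in nearly every row, when 37 of 43 genes were called lower, and 40 carry a dot at 7d.

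The promoters of these genes were searched for the 2 elements named above, in windows of 300 bases from RefSeq (GRCm38.p6), 250 before to 50 after a transcription start. The table held 37 windows for 35 of the 43 genes. The CHR core was searched as TTTGAA and the CCAAT box as CCAAT, each on both strands, and matches to both can share only an edge letter. The CHR core was present in 27 of 37 windows (73%), against 17.9% of all 32851 windows and 13.2% of those of genes with a probe set. A CCAAT box was present in 30 of 37 windows (81.1%), against 37.4% of all windows, and 24 held both (64.9%, against 6.95%). Several CCAAT boxes stood in 21 windows (56.8%, against 11.7%), and the median distance between neighbouring boxes was 39 bases, against 50 over all windows with several. Of 35 CHR matches 25 (71.4%) began within 50 bases of the start, against 25.3% of the matches in all windows. A match is a description of letters, not a tested site.

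A total of 8 stretches, from 150 bases before to 30 after the start, are shown as examples across the order of half-fall times given below. They were chosen after the matches were seen, and Cks2 stands for the members with CCAAT boxes and no CHR core. All are read in the direction of transcription, with matches to both elements in capitals, and a reverse match appears as TTCAAA or ATTGG.
Ttk (chr9:83834539-83834718, plus strand): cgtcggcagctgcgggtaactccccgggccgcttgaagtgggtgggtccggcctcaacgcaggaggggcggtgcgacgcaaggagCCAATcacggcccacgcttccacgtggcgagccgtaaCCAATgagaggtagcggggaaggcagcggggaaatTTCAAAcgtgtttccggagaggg
Cenpf (chr1:189688057-189688236, minus strand): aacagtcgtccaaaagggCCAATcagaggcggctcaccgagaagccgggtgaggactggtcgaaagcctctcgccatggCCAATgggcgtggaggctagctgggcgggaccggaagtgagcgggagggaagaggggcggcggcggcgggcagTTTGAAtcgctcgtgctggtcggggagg
Top2a (chr11:99024160-99024339, minus strand): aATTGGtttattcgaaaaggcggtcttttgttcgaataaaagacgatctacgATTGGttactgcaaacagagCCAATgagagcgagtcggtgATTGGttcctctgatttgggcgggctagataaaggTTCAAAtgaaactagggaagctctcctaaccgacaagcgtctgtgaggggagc
Kif23 (chr9:61946770-61946949, minus strand): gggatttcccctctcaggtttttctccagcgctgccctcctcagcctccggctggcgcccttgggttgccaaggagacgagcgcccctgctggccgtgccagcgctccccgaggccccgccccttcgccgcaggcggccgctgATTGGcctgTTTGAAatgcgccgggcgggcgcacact
Cdk1 (chr10:69352883-69353062, minus strand): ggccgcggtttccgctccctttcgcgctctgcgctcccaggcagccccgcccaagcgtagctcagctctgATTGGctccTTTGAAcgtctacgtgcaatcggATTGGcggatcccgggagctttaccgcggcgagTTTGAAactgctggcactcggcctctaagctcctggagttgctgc
Cdc20 (chr4:118437314-118437493, minus strand): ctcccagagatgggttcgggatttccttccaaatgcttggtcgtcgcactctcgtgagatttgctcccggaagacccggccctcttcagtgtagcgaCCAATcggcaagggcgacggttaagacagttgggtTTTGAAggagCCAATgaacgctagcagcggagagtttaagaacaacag
Ccnb2 (chr9:70421525-70421704, minus strand): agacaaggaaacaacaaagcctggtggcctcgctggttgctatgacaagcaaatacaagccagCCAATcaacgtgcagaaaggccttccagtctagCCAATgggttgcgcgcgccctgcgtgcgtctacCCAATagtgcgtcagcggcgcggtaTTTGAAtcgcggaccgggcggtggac
Cks2 (chr13:51645082-51645261, plus strand): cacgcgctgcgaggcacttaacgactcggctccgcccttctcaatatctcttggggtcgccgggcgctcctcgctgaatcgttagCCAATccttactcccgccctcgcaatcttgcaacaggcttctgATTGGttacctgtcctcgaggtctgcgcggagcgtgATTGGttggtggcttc
In the stretch of Ccnb2, the gene of the mitotic cyclin B2, the CHR core began at position 5 from the start and 3 CCAAT boxes stood before it. A further core of Ccnb2 lay outside the stretch, at −167. In Cdk1 the core appeared at −71 and −15, in Cdc20 at −18 and in Kif23 and Cenpf at position 3. In the stretch of Top2a it lay on the reverse strand at −23, with 4 CCAAT boxes, and in Ttk on the reverse strand at position 8. The whole window of Top2a held 6 CCAAT boxes and a further core at −179. Median half-fall time was 12.44 h in 22 genes with the core and 12.84 h in 8 genes without it, given as a description. Among S phase and replication genes the core stood in 15.6% of 45 windows and a CCAAT box in 51.1%. Among other G2 and mitosis genes, which are not among the 44, the shares were 50% and 65.7% of 70 windows.

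**Figure D2:**
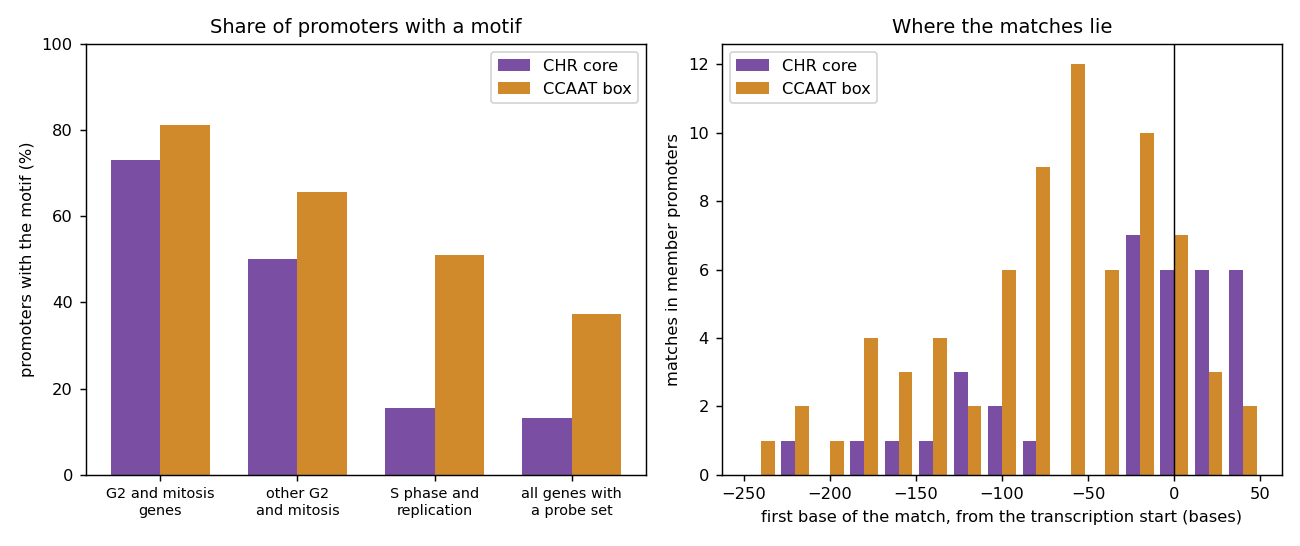
Left, percent of promoter windows with the CHR core or a CCAAT box in 4 sets of genes; right, number of matches in the windows of the G2 and mitosis genes by distance in bases from the transcription start (vertical line). The CHR core stands in 73% of the windows of the G2 and mitosis genes and 13.2% of those of all genes with a probe set, and its matches gather near the start.

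Of the 43 genes 12 act in mitotic entry: kinases, cyclins and their regulators. At 12h 5 of the 12 were lower and at 18h 11 of the 12, and the other, Cdca3, was called at 24h. Cdk1, the kinase that drives entry into mitosis, gave 2232, 1702 and 895 at 18h in cultures 1999, P6 and P10, against 10455, 12410 and 8964 at 0h. Its 18h arrays lay far below the 0h arrays in all 3 cultures, with a log2 fold change of −2.70 ± 0.42 (adjusted p = 0.00019). In P10 it gave 581 at 24h, 368 at 3d, 112 at 4d and 62.5 at 7d. In culture 1999 it gave 1741, 2068, 1853 and 1215 at the same times. Against 0h, its log2 fold change at 7d was −4.20 (adjusted p = 3.8e-07).

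Ccnb2 gave 2600, 1723 and 1949 at 18h, against 14268, 15706 and 11109 at 0h. At 6h the 3 cultures disagreed, with 20801, 6271 and 10959: culture 1999 stood above its 0h level, P6 far below it and P10 close to it. The change was −1.05 at 12h (adjusted p = 0.063) and −2.65 at 18h (adjusted p = 3.3e-06). Ccna2, cyclin A2, which acts in S phase and in early mitosis, gave 2303, 2808 and 3026 at 12h, against 5143, 8735 and 6083 at 0h. All 3 arrays of 12h lay below all 3 of 0h (log2 fold change of −1.23 ± 0.27, adjusted p = 0.013), and by 24h the change was −2.24. It gave a lowest value of 729, a median of 1215 and a highest value of 2011 over the 18 arrays of 24h to 7d.

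Plk1, a kinase of mitotic entry and spindle assembly, gave 1849, 1577 and 2212 at 12h, against 3982, 6461 and 5045 at 0h. The groups did not overlap (log2 fold change of −1.39 ± 0.30, adjusted p = 0.012), and the 18 arrays of 24h to 7d gave a lowest value of 369.7, a median of 915 and a highest value of 1167. Aurka, the kinase of the spindle poles, gave 244, 40.4 and 137 at 18h, against 1940, 3779 and 2660 at 0h, with a log2 fold change of −3.51 ± 0.43 (adjusted p = 1.1e-05); at 12h its change of −1.57 had an adjusted p of 0.057. Pbk, a mitotic kinase, gave 273, 733 and 163 at 24h, against 11717, 13281 and 8523 at 0h, a log2 fold change of −4.19 ± 0.33 (adjusted p = 1.5e-08). Nek2, a kinase of centrosome separation, gave a smaller change of −1.61 at 24h (adjusted p = 0.00043).

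Foxm1 encodes the activator of late cell cycle genes. It gave 136, 95.4 and 115 at 18h, against 1772, 2369 and 1500 at 0h, with a log2 fold change of −3.07 ± 0.39 (adjusted p = 1.8e-05). Its brightest probe set, 98306_g_at, with a 0h mean of 7210, changed by −0.61 at 18h (adjusted p = 0.15) and −0.92 at 24h (adjusted p = 0.018). A further one, 107523_at, changed by −2.53 at 18h (adjusted p = 2.4e-05). Cks2, a subunit that binds cyclin-dependent kinases, gave 848, 918 and 789 at 18h, against 6807, 9245 and 6201 at 0h, with a log2 fold change of −2.94 ± 0.22 (adjusted p = 1.6e-08). Cdkn3, a phosphatase of these kinases, gave 38.2, 37.8 and 55.9 at 18h, against 401, 345 and 692 at 12h, and all 3 cultures dropped in this interval (log2 fold change of −1.83 ± 0.25, adjusted p = 0.0023). In P6 it already stood at 231 at 6h, against 1109 at 0h. Cdc25c, the phosphatase that activates CDK1, was low on the chosen probe set from the start, while its other probe set gave 1718, 1884 and 1437 at 0h. The chosen one gave 39.6, 33.6 and 109 at 18h, against 408, 546 and 513 at 0h, with a log2 fold change of −1.77 ± 0.24 (adjusted p = 3.1e-05). Cdca3, which marks proteins for destruction at mitotic entry, changed least of the 12, by −0.94 at 24h (adjusted p = 0.0086).

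**Figure D3:**
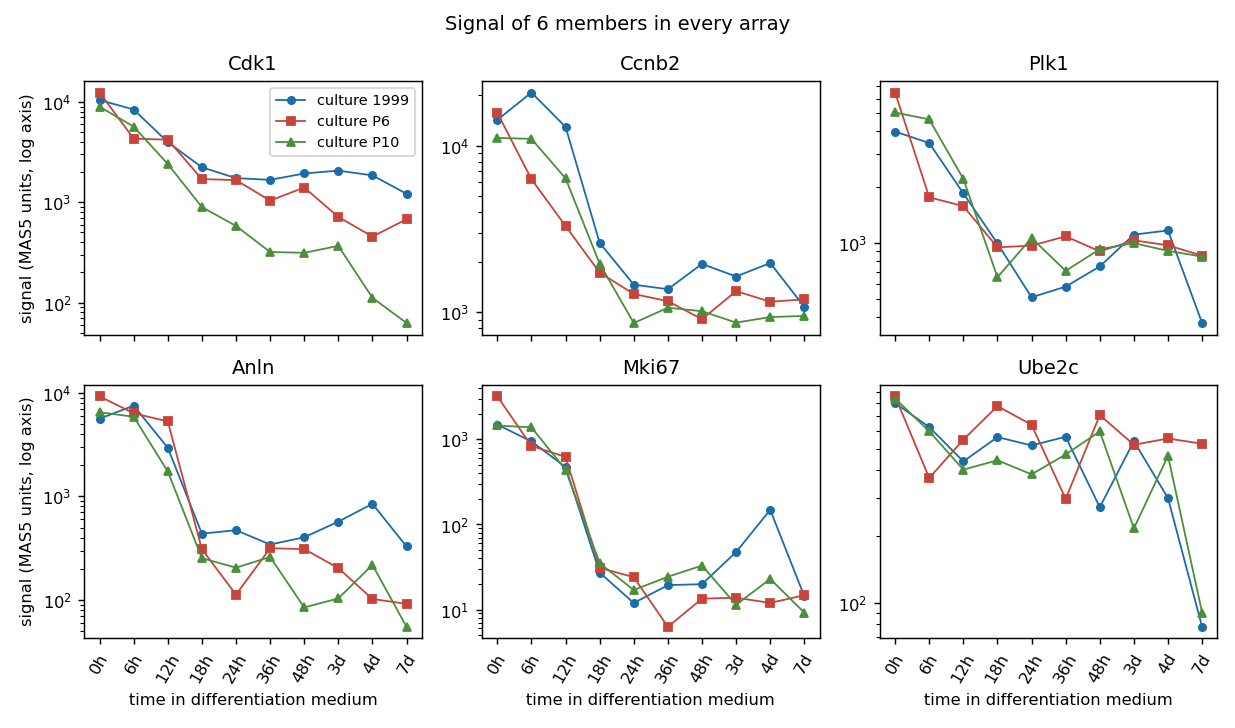
MAS5 signal (log axis) of Cdk1, Ccnb2, Plk1, Anln, Mki67 and Ube2c in every array, by time in differentiation medium; each line is 1 culture. Anln and Mki67 drop at 18h in all 3 cultures, Cdk1 in P10 goes on down to 62.5 at 7d, and Ube2c shows no such step.

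Of the 9 genes of the kinetochore and spindle checkpoint, 6 were lower at 12h, the same number at 18h, and 7 at 24h. Bub1, a checkpoint kinase, gave 19.9, 32.9 and 31.3 at 18h, against 930.5, 1687 and 953 at 0h. It was among the dimmest genes thereafter, with a median of 13.5 over the 18 arrays of 24h to 7d, and its log2 fold change of −3.10 ± 0.26 (adjusted p = 8.5e-08) is limited by the added value. Bub1b, the checkpoint protein BubR1, gave 1382, 1134 and 662 at 12h, against 2618, 4237 and 4133 at 0h, and had a log2 fold change of −1.58 ± 0.35 (adjusted p = 0.015). Mad2l1, the checkpoint protein MAD2, gave 864, 1465 and 541 at 12h, against 3099, 4478 and 2473 at 0h. It was among the genes that had fallen furthest by 12h (log2 fold change of −1.74 ± 0.32, adjusted p = 0.0032), and by 18h the change was −2.44.

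Ttk, the checkpoint kinase MPS1, gave 505, 382 and 308 at 12h, against 1030, 2151 and 950.1 at 0h (log2 fold change of −1.46 ± 0.35, adjusted p = 0.023). Cenpf, a protein of the outer kinetochore, gave 1082, 225 and 323 at 12h, against 1329, 1964 and 1914 at 0h: culture 1999 was still near its 0h level while P6 and P10 had dropped (log2 fold change of −1.43 ± 0.35, adjusted p = 0.027). Cenph, a protein of the inner kinetochore, changed by −3.45 at 24h (adjusted p = 4.4e-08). Cenpa, the histone that marks centromeres, was called later than those genes. It gave 1558, 774 and 783 at 12h and 734, 432 and 336 at 24h, against 1331, 2110 and 1465 at 0h, and was called at 24h (log2 fold change of −1.53 ± 0.36, adjusted p = 0.011).

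Cdc20 and Ube2c act in anaphase promotion. Cdc20, which activates the anaphase-promoting complex, gave 1345, 917 and 866 at 18h, against 7696, 13500 and 9641 at 0h. All 3 cultures had dropped to a similar level, with a log2 fold change of −3.15 ± 0.27 (adjusted p = 1.1e-07). Ube2c, the ubiquitin-conjugating enzyme of that complex, behaved otherwise on its only probe set. It gave 516, 641 and 382 at 24h, against 803, 861 and 842 at 0h, and its change of −0.61 did not pass (adjusted p = 0.45). At 7d it gave 77.9, 526 and 90.4, low in 1999 and P10 and not in P6, and was called lower (log2 fold change of −1.67 ± 0.35, adjusted p = 0.0023). Its probe set carries a suffix mark for an incomplete design, as does 95118_r_at, the chosen probe set of Kif22. A suffix mark of some kind stands on 7 of the 43 chosen probe sets.

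All 4 genes of the chromosomal passenger complex, which corrects wrong attachments and then acts in cytokinesis, were lower by 18h. Aurkb, its kinase, gave 351, 502 and 905 at 12h, against 1790, 2681 and 1906 at 0h, a log2 fold change of −1.73 ± 0.35 (adjusted p = 0.0071). Birc5, its subunit survivin, was not called at 12h. It gave 1408, 1961 and 1455 at 12h and 308, 324 and 117 at 18h, against 2131, 4055 and 2724 at 0h, and its log2 fold change of −2.27 ± 0.26 (adjusted p = 0.00035) for 18h against 12h had the smallest adjusted p of the 43 genes in that interval. Incenp, the scaffold of the complex, gave 1084, 1047 and 622 at 12h, against 2414, 2285 and 2106 at 0h (log2 fold change of −1.23 ± 0.22, adjusted p = 0.0028). Cdca8, its subunit borealin, changed by −1.14 at 12h (adjusted p = 0.022) and −2.27 at 18h.

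The 6 spindle proteins and kinesins were all lower at 18h, 3 of them already at 12h. Kif2c, a kinesin that takes microtubules apart at centromeres, gave 1080, 580.1 and 548 at 12h, against 1806, 3288 and 1826 at 0h (log2 fold change of −1.50 ± 0.34, adjusted p = 0.017). Kif22, a kinesin that moves chromosome arms, changed by −1.45 at 12h (adjusted p = 0.0016) and −2.86 at 24h. Kif4, a kinesin of chromosomes and of the midzone, changed by −1.34 at 12h (adjusted p = 0.015). Kif11, the kinesin that pushes spindle poles apart, was called at 18h (log2 fold change of −2.29 ± 0.38, adjusted p = 0.00041). Tpx2, which activates the kinase encoded by Aurka, gave 1885, 1550 and 997 at 18h, against 3833, 8618 and 6283 at 0h, with a log2 fold change of −1.86 ± 0.40 (adjusted p = 0.004). Nusap1, which bundles spindle microtubules, stood above 0h at 6h in cultures 1999 and P10. It gave 1925, 1115 and 2644 at 6h and 816, 1244 and 733 at 12h, against 1223, 1930 and 1113 at 0h, then 231, 51.7 and 53.1 at 18h, and its log2 fold change of −2.24 ± 0.38 (adjusted p = 0.014) for 18h against 12h passed the test.

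Of the 8 genes of cytokinesis Kif23 alone was called at 12h, 7 were lower at 18h, and 3 of them (Anln, Ect2 and Kif20a) passed for 18h against 12h alone. Anln, the scaffold anillin of the contractile ring, gave 2953, 5309 and 1744 at 12h and 437, 308 and 253 at 18h, against 5642, 9271 and 6514 at 0h. In P6 the 12h array was still at 5309 and the 18h array at 308, and the log2 fold change of −2.82 ± 0.40 (adjusted p = 0.0025) for 18h against 12h was the largest of the 43 genes in any interval. Against 0h it reached −4.80 at 7d (adjusted p = 3e-08), also the largest of the 43. Ect2, which switches on the small GTPase RhoA for the furrow, gave 898, 2603 and 657 at 12h and 210.2, 234 and 272 at 18h, against 1830, 4370 and 1883 at 0h (log2 fold change of −1.85 ± 0.31, adjusted p = 0.011 for 18h against 12h).

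Racgap1 and Kif23 encode the pair of proteins that make up centralspindlin, the hub of the spindle midzone. Kif23 gave 1316, 1469 and 854 at 12h, against 4398, 5217 and 5794 at 0h (log2 fold change of −2.0 ± 0.34, adjusted p = 0.0016). Racgap1 gave 1206, 1127 and 1165 at 12h and 602, 529 and 702 at 18h, against 2230, 2875 and 2251 at 0h, with a log2 fold change of −1.81 ± 0.30 (adjusted p = 0.00036). At 7d it gave 579, 108 and 62.3, far lower in P6 and P10 than in 1999. Prc1, which bundles midzone microtubules, changed by −3.40 at 18h (adjusted p = 1.1e-05). Kif20a, a midzone kinesin, changed by −3.00 at 18h (adjusted p = 6.8e-06). Diaph3, a formin that builds actin filaments, changed by −1.55 at 18h (adjusted p = 0.0013). Cit, citron kinase, did not pass at any time on the chosen probe set.

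The remaining pair belongs to chromosome structure. Mki67, whose product Ki-67 coats mitotic chromosomes and is a standard marker of dividing cells, gave 27.1, 30.9 and 35.1 at 18h, against 1496, 3210 and 1461 at 0h. The 3 cultures fell to nearly one level, with a log2 fold change of −3.76 ± 0.26 (adjusted p = 1e-08), and the median of the 18 arrays from 24h on was 15.8. Top2a, the topoisomerase that untangles sister chromosomes, gave 663, 555 and 627 at 12h and 130.2, 111 and 43.1 at 18h, against 2441, 3138 and 2038 at 0h (log2 fold change of −1.84 ± 0.30, adjusted p = 0.001 at 12h). Its highest later array, 452.1, was that of culture 1999 at 4d, and the highest later array of Mki67, 148.6, was the same sample.

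The order of the falls was measured by the half-fall time, the first time at which a gene's log2 value crossed the midpoint between 0h and the median of 24h to 7d. It was read by straight lines between sampled times 6 h apart, for the 38 genes whose drop was at least 1 on the log2 scale, and it is a description without a test. The times ran from 8.65 h to 14.38 h with a median of 12.44 h, 15 genes before 12 h and 23 after. The earliest were Incenp at 8.65 h, Ttk at 9.83 h, Mad2l1 at 9.95 h, Cenpf at 9.95 h and Kif4 at 10.02 h. The latest were Ccnb2 at 14.38 h, Cdkn3 at 14.35 h, Tpx2 at 14.31 h, and Diaph3, Birc5 and Anln at 14.07 h each. By role, the median was 11.07 h in the passenger complex (4 genes), 11.87 h in the kinetochore and checkpoint (7), 12.19 h in mitotic entry (11), 12.77 h in the spindle and kinesins (6) and 13.25 h in cytokinesis (7). All 7 cytokinesis genes with a value came after 12 h. The order of roles was not the same in the 3 cultures: in 1999, P6 and P10 the median was 12.6, 13.83 and 13.24 h for cytokinesis, 14.01, 5.96 and 10.17 h for the kinetochore and checkpoint, and 14.17, 6.76 and 12.79 h for the spindle and kinesins. In 1999 cytokinesis came before the kinetochore, the spindle and mitotic entry (13.02 h), and in P6 and P10 after them.

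This order is coarse. The range over the 38 genes was 5.73 h, while the SD of a gene's half-fall time over the 3 cultures had a median of 1.59 h and reached 5.71 h, so neighbours in the order do not differ beyond their spread. Mki67 at 12.73 ± 0.29 h, Cdc20 at 12.91 ± 0.34 h and Nusap1 at 13.64 ± 0.38 h (means of the cultures, SD, n = 3) were the best agreed. Cdkn3 at 11.67 ± 5.71 h and Tpx2 at 11.85 ± 5.68 h were the least. For 33 of the 38 genes the interval with the largest drop was 12h to 18h. The other 5 were Incenp (0h to 6h), Mad2l1 and Kif4 (6h to 12h), Cenpa (18h to 24h) and Racgap1 (4d to 7d). The order of the genes also depended on the measure. Another measure was the time at which the mean signal of the 3 cultures, without log2, reached 50% of 0h. By it the earliest of the 38 were Pbk at 5.49 h, Ttk at 5.90 h, Top2a at 6.12 h, Mki67 at 6.32 h and Kif23 at 7.05 h. Incenp came at 9.09 h.

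**Figure D4:**
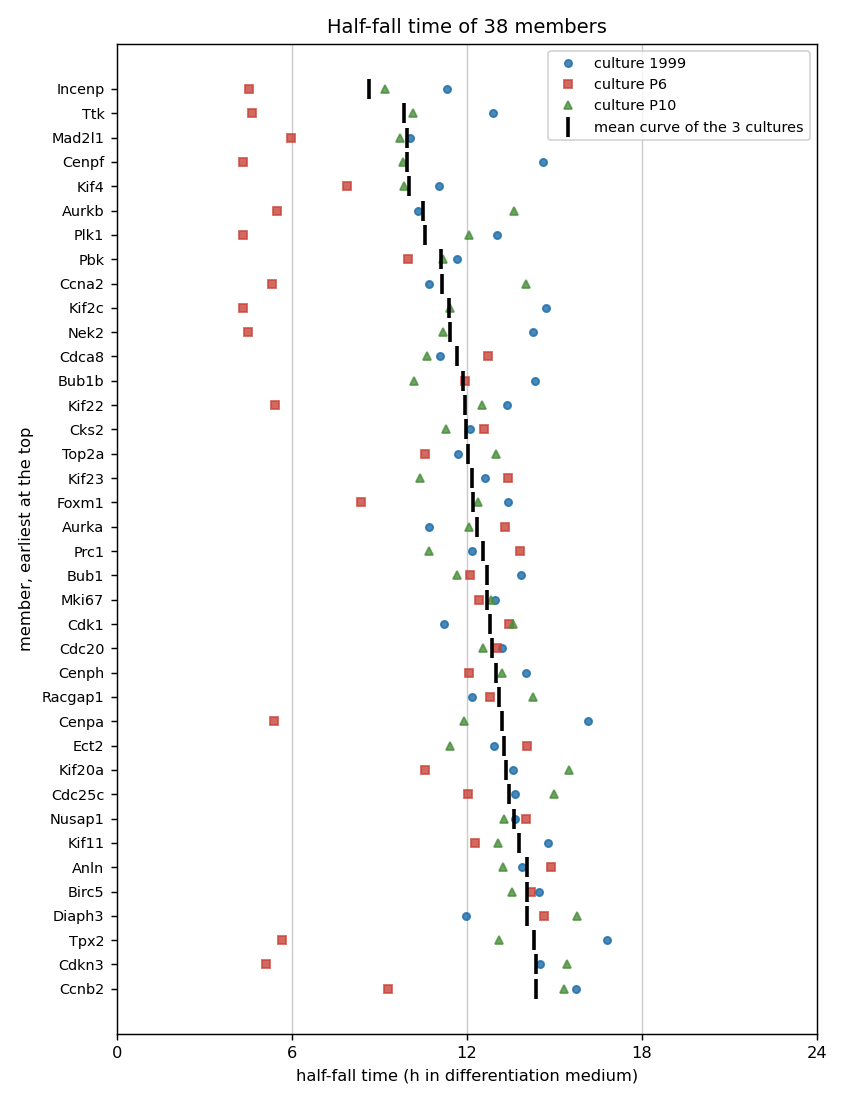
Half-fall time in hours (horizontal axis) of the 38 genes whose log2 drop was at least 1, earliest at the top; black bars mark the mean curve of the 3 cultures and coloured points each culture. For 13 genes the point of culture P6 lies before 6 h, and no point of 1999 or P10 does.

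The cultures differed in the first hours. In P6 42 of 43 genes were lower at 6h than at 0h, 29 of them by at least 1 on the log2 scale, with a median change of −1.24. In 1999 the median change at 6h was 0.029, with 21 of 43 lower, and in P10 −0.19, with 33 lower, and in neither culture was any gene lower by 1. At 0h the P6 array was the highest of the 3 for 40 of 43 genes, and at 6h it was the lowest for 37. Half-fall came before 6 h for 13 of 38 genes in P6 and for 0 in 1999 and P10. Plk1 in P6, for example, gave 6461 at 0h, 1761 at 6h, 1577 at 12h and 946 at 18h. Anln in P6 lost less in these hours, with 9271, 6367 and 5309 at 0h, 6h and 12h. By 12h the medians were −0.83 in 1999, −1.43 in P6 and −1.23 in P10, and at 18h they were −2.10, −3.02 and −2.44. With 1 array per culture and time this difference between cultures at 6h was not tested. Most scan days held arrays of 1 culture only, so culture and scan day can hardly be told apart. Of the median fall each culture made by 24h to 7d, 43% ± 5.77 was reached at 12h and 94% ± 0.83 at 18h (SD, n = 3).

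**Figure D5:**
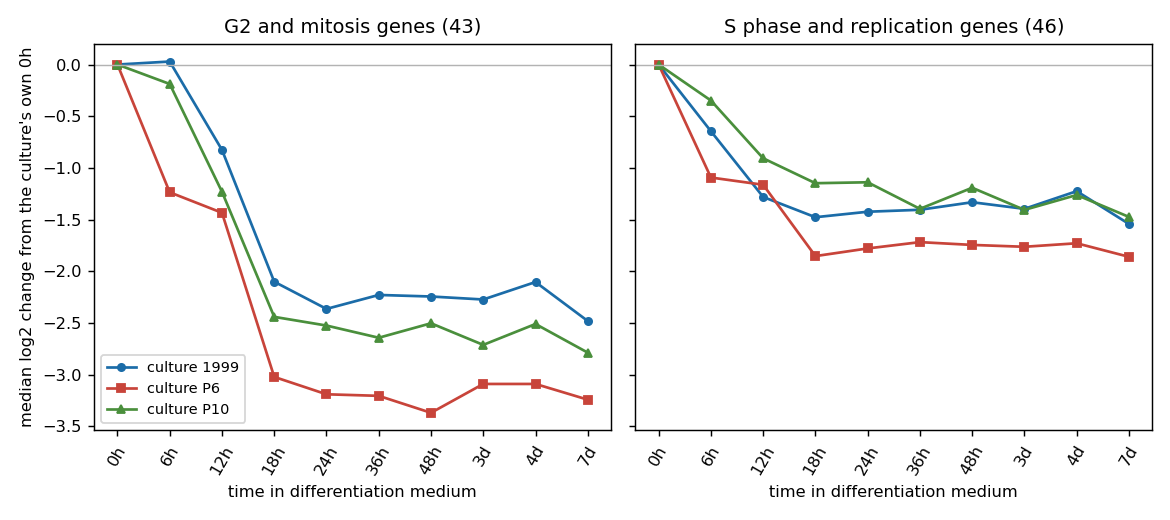
Median log2 change from the culture's own 0h of the 43 G2 and mitosis genes (left) and 46 S phase and replication genes (right) over time; each line is 1 culture. On the left P6 is down by 1.24 at 6h while 1999 and P10 are near 0, and all 3 cultures are near their final level at 18h.

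Each time was also set against the one before it. For 12h against 6h 0 of 43 passed, while 0.00626% of all genes were lower at the same adjusted threshold. At an unadjusted p under 0.05, 28 of the 43 were lower and 0 higher. For 18h against 12h 13 of 43 were lower, and these were 13 of the 21 genes called lower among all 15964 (0.132%). Since the members were chosen with earlier results of these data known, their part in the 21 is a description only. The 13 were Birc5, Mki67, Cdkn3, Anln, Cenph, Cks2, Bub1, Cdc20, Top2a, Ect2, Nusap1, Kif20a and Ccnb2, and each was lower in all 3 cultures. From 18h on no gene of the series passed in any interval (0% of all genes for 24h against 18h, 36h against 24h, 48h against 36h, 3d against 48h, 4d against 3d and 7d against 4d). Of the 43, at most 3 were lower and at most 1 higher at an unadjusted p under 0.05 in any of these 6 intervals. Without culture 1999 or without P10 0 of the 43 passed for 18h against 12h, and without P6 6 did. For 12h against 0h 2 to 11 of the 43 were called with 1 culture left out, 2 without P10, 8 without 1999 and 11 without P6.

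The genes were also asked whether they came back. The mean of 3d, 4d and 7d was set against the mean of 24h, 36h and 48h, and 0 of 43 passed, as did 0% of all genes. At an unadjusted p under 0.05, 2 were lower (Cdk1 and Ube2c) and 1 higher (Cenpe, on a probe set near background). The median difference of the 43 was 0.013 on the log2 scale, with a range from −0.67 (Cdk1) to 0.47 (Cenpe). Culture 1999 at 4d was the highest of the 3 for several genes, such as Anln with 849, 102 and 218 at 4d and Mki67 with 149, 12 and 22.9.

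An interaction term asked whether the drop between the first 3 times (0h, 6h and 12h) and the last 6 (24h to 7d) differed by culture. Each side of such a difference is 1 culture, and its times stand in for replicates, so the p-values do not cover the spread between cultures. The early times also span hours in which these genes were falling. For P6 minus 1999 0 of 43 passed, against 1.71% of all genes, and for P10 minus P6 0 of 43, against 0.896%. At an unadjusted p under 0.05 the counts of the 43 were 7 and 4 in that order. For P10 minus 1999 1 of 43 passed, Cdk1, a share near the 1.73% of all genes. Its mean log2 value changed by −3.77 in P10, against −1.96 in 1999, and P6 lay between with −2.59. The difference of −1.81 ± 0.36 had an adjusted p of 0.018. It did not pass with the scan session as a further block (−1.19, adjusted p = 0.39) or with the 50th percentile as the added value (−1.04, adjusted p = 0.053). A scan session is a day of scanning, and most held 1 culture only, so the difference can hardly be told apart from scan day.

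The further probe sets gave a check on the chosen ones. Of 40 further probe sets of 23 genes, 19 were lower at 24h and 0 higher, against 1.62% lower among the further probe sets of all genes. At least 1 probe set was lower at 24h in 42 of the 43 genes, all but Ube2c, against 4.63% of all genes. In 8 of the 23 genes every probe set was lower, and in the other 15 some were. For Ndc80, a kinetochore protein that holds microtubules, the further probe set 129983_at gave 500.9, 40.1 and 100.7 at 24h, against 3482, 5825 and 2622 at 0h (log2 fold change −3.37 ± 0.52, adjusted p = 0.00016). For Cenpe, a kinetochore motor, the probe set 112018_at gave 878.7, 589.2 and 794.1 at 24h, against 4246, 6860 and 3229 at 0h (−2.25 ± 0.38, adjusted p = 0.00034). For Cit the probe set 109311_at gave 440.9, 558.3 and 369.7 at 24h, against 1745, 5883 and 3841 at 0h (−2.36 ± 0.33, adjusted p = 3.8e-05). It had already passed at 6h (−1.89 ± 0.33, adjusted p = 0.0052), as had 97095_at of Bub1 (−0.99 ± 0.08, adjusted p = 1.8e-06).

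Some further probe sets were not called lower. Probe set 167591_at of Cdca3 gave 6175, 4472 and 6346 at 24h, against 4330, 3663 and 5043 at 0h, with a log2 fold change of 0.36 and an adjusted p of 0.67. Of the 6 further probe sets of Incenp, 2 were lower at 24h and the brightest, 167338_i_at, changed by −0.27 (adjusted p = 0.73). Probe set 161931_r_at of Mki67, with a 0h mean of 446 below the chip median of 527, changed by −0.18 (adjusted p = 0.84). At 24h 161292_f_at of Plk1 changed by −0.665 (adjusted p = 0.53) and 166511_r_at of Kif22 by −0.61 (adjusted p = 0.55). Another probe set of Plk1, 93099_f_at, changed by −3.75 (adjusted p = 4.2e-07). Which part of a transcript each probe set reads was not analysed here.

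Other lists of cell cycle genes were read beside these. Members and lists were chosen with earlier results of these data known, so a difference between lists cannot be told apart from that choice. Of 68 other G2 and mitosis genes, 39 were lower at 18h, against 37 of the 43, with medians of −1.17 and −2.55 in that order, and 0 were higher at any time. The 5 with the smallest adjusted p at 18h were Ncapg, Ckap2l, Aspm, Kpna2 and H2az1. Ncapg, a condensin subunit, gave 99.3, 41.8 and 41.9 at 18h, against 1308, 2879 and 1557 at 0h (log2 fold change −2.66 ± 0.20, adjusted p = 1.3e-08). Kpna2, a nuclear import receptor, gave 303, 664 and 851 at 18h, against 4595, 6926 and 4978 at 0h (−3.01 ± 0.26, adjusted p = 8.8e-08). Changes at 18h were −2.86 for Ckap2l, −1.81 for Aspm and −2.45 for H2az1.

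At 6h, when 0 of the 43 had passed, 9 of 46 genes of S phase and DNA replication were lower, against 0.438% of all genes. The 3 with the smallest adjusted p were Mybl2, Gins1 and Orc6. Mybl2, which encodes B-MYB, gave 752, 205 and 142 at 6h, against 1199, 1718 and 1110 at 0h (−1.78 ± 0.28, adjusted p = 0.0027), while a brighter probe set of Mybl2 changed by 0.30 at 18h. Gins1, a part of the replicative helicase, gave 253, 245 and 195 at 6h, against 1102, 785 and 455 at 0h (−1.02 ± 0.18, adjusted p = 0.0052). Orc6, a subunit of the origin recognition complex, gave 1793, 1414 and 1469 at 6h, against 3113, 4482 and 3281 at 0h (−1.15 ± 0.20, adjusted p = 0.0057). At 6h the median G2 and mitosis gene had made −1.28%, 38.7% and 7.27% of its median fall in 1999, P6 and P10, against 46.1%, 62.3% and 26.2% for the median S phase gene. The share was smaller for G2 and mitosis genes in each culture. With 3 cultures a paired exact test could not reach 0.05, and none was run. The median half-fall time was 12.44 h for 38 G2 and mitosis genes, against 10.53 h for 44 other G2 and mitosis genes, 31 of them before 12 h, and 6.34 h for 31 S phase genes. In P6 these medians were 11.24, 6.74 and 4.79 h in that order. The limit on the choice of lists holds for these times too. At 18h the median log2 fold change was −2.55 for G2 and mitosis genes and −1.49 for S phase genes, so the earlier list fell less far.

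Of 13 genes linked to cell cycle exit, 2 were higher at 6h, against 0.651% of all genes, and 7 at 18h, against 4.26%. Without the culture block 1 was higher at 6h and 3 at 18h: Cdkn1a was not called at 6h (adjusted p = 0.54), nor were Cdkn1a (0.082), Ccnd3 (0.098), Cdkn1c (0.23) and Rb1 (0.4) at 18h. Cdkn1a, the inhibitor p21, gave 16251, 17560 and 25538 at 6h, against 8947, 7662 and 8248 at 0h (1.22 ± 0.24, adjusted p = 0.014). Ccng2, an atypical cyclin linked to arrest, gave 3528, 2110 and 3890 at 6h, against 832, 1391 and 529 at 0h (1.71 ± 0.28, adjusted p = 0.0048). The others called higher at 18h were Cdkn1c, Gas1, Btg2, Ccnd3 and Rb1, with changes of 1.01 (Rb1) to 3.01 (Cdkn1c, adjusted p = 0.04998). Rbl1, which encodes the pocket protein p107, was lower at 18h (−1.92 ± 0.27, adjusted p = 5.5e-05).

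Facts of the whole series bear on these values as follows. The trimmed mean of each array lay between 1500 and 1501, so arrays were scaled to one level and a change in the total RNA of a cell is not seen. The probe set of Myod1 itself gave 2598 to 6889 in all 30 arrays, and whether it reads the deleted part was not analysed here. Of 8 myoblast markers measured 7 lay above the chip median. Summed signals of 8 myotube markers were 143780 to 388030 at 7d, against 3916 to 12613 at 0h. Acta1 and Mymk made up most of the myotube sum at 7d. Acta1 gave 4796, 120450 and 163660 at 4d and 56165, 116530 and 146360 at 7d, so culture 1999 was far behind at 4d. Ckm went otherwise, with 429, 910 and 1053 at 7d, against 1354, 823 and 888 at 0h. Those of 7 fibroblast markers were 24454 to 28393 at 7d, against 4403 to 6282 at 0h, and those of 3 smooth muscle markers 33469 to 43534, against 3652 to 19093. Col3a1 and Postn made up most of the fibroblast sum at 7d, with 13373, 20462 and 15801 for Col3a1 and 11712, 6587 and 6819 for Postn in the 3 cultures at 7d. Pdgfra and Dpt were also higher at 7d in each culture. Pdgfra gave 581, 408 and 1037 at 7d, against 343, 185 and 840 at 0h. Dpt gave 72, 581 and 489 at 7d, against 19.5, 116 and 101 at 0h. Lum gave 191, 205 and 147 at 7d, against 255, 265 and 230 at 0h, and Thy1 and Tcf21 had means under the added value. Acta2 made up nearly all of the smooth muscle sum, and Myh11 and Cnn1 gave at most 71 and 101.8 in any array. Above the chip median lay 3 of the 7 fibroblast markers and 1 of the 3 smooth muscle markers, while 0 of 4 endothelial, 0 of 5 immune and 0 of 3 fat cell markers did. The part of other cell types in the fall of the G2 and mitosis genes was not tested.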

How the data were processed

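RNA of MyoD-/- myoblast cultures was read on 90 Affymetrix arrays, 30 for each of 3 chip designs. The authors deposited 1 signal intensity per probe set and array, made with MAS5, per the submitters' processing notes, and no version is given in the sources used here. The 2% trimmed mean of every array was close to 1500, so the deposited intensities were scaled to a common level before deposit. Read depth does not apply to arrays, and the precision is limited by their number.

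From the intensities, log2(signal + the 25th percentile of the chip's table) was fitted with limma 3.58.1 in R 4.3.3, each chip separately, with time and culture as terms and an intensity trend. P-values were adjusted by Benjamini-Hochberg over all 36701 probe sets that are not controls, with no filter on low values, and called at 0.05. A gene is 1 probe set with a single symbol in the platform annotation, the MG_U74Av2 chip before MG_U74Bv2 before MG_U74Cv2, then names without a suffix mark, then the highest mean. The annotation can be old. The culture is a block because its name in the titles is shared by all times. The arrays were scanned on 6, 5 and 4 recorded days on the 3 chips, and 1 day per chip held more than 1 culture. Differences between cultures can therefore hardly be told apart from differences between scan days. Deviations of arrays of the same culture had a median correlation of 0.34, 0.189 and 0.0756 on the 3 chips, against −0.151, −0.0717 and −0.0307 for arrays of other cultures. The deviations were taken from the mean of the 3 cultures at each time. The negative values therefore follow from the positive ones and are no separate evidence for the pairing.

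All 43 members with a probe set are named. From other lists, the text names the 5 other G2 and mitosis genes with the smallest adjusted p at 18h, the 3 S phase genes with the smallest at 6h and the cell cycle exit genes called at 18h. The members and lists were chosen with earlier results of these data known. The model was tested on simulated data. Alternatives covered the added value, a filter, quantile normalization, the trend, the probe set, the scan session, the block and each culture left out.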

Additional observations from a re-analysis of the deposited data

Results flagged for a closer look

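Of the G2 and mitosis genes, Cdk1 was the 1 whose change from 0h to 12h into 24h to 7d differed between cultures by the interaction test. The difference of P10 minus 1999 was −1.81 on the log2 scale in limma (adjusted p = 0.018). That is 1 of 43 genes, near the 1.73% called among all genes, and the p-value takes the times of 1 culture on each side as replicates. The change was −3.77 in P10, against −1.96 in 1999. The adjusted p ranged from 0.012 to 0.39 over the alternatives, and 0.39 came with the scan session as a further block.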

How the results depend on the processing

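Among the values and counts that answer the comparisons, 265 stayed within the tolerance under the alternatives (1.5 times for a count) and 19 moved. With the replicate block removed, 20 genes were lower at 12h, 37 at 18h and 11 for 18h against 12h, in place of 21, 37 and 13, so the pairing by culture ended none of these counts. With 1 culture left out, the count was 2 to 11 at 12h and 0 to 6 for 18h against 12h, while at 18h it was 35 to 37 and at 24h 35 to 38. With the 6 arrays of 12h and 0h alone the 12h count was 0. At 6h the count was 1 with a filter on low values and 3 with the 50th percentile added. Genes called for P6 minus 1999 numbered 1 with the filter, with the 50th percentile and with the probe set of highest mean on any chip. For P10 minus P6 1 was called with the 50th percentile, and for P10 minus 1999 0 with it and with the scan session as a block. The median half-fall time was 9.45 h on linear signals and 10.97 h with the 50th percentile added, against 12.44 h, and 12.32 to 12.66 h with 1 culture left out. With the probe set of highest mean, Mybl2 at 18h changed by 0.30 and Cdca3 at 24h by 0.36. The cause of these changes was not tested. Of 602 values of single genes at 24h, 580 kept their direction and side of the threshold. Leaving out the P6 arrays of 6h and 12h, or the 1999 arrays of 4d and 7d, was chosen after seeing the data and moved no count by over 1.5 times. Signals near background limit the folds of the dimmest genes.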
